A study of Saccharomyces cerevisiae with 9 samples.

Results

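The cell wall mannoproteins described here are 10 genes of Saccharomyces cerevisiae, chosen by name: CCW12 (YLR110C), CWP1 (YKL096W), CWP2 (YKL096W-A), TIP1 (YBR067C), TIR1 (YER011W), SED1 (YDR077W), SPI1 (YER150W), PIR1 (YKL164C), PIR3 (YKL163W) and HSP150 (YJL159W). The annotation of the Affymetrix Yeast S98 array gave each of them exactly 1 probe set, none of which carried a shared-probe suffix, out of 5656 genes named alone by a tested probe set. RNA of 3 groups of 3 arrays was compared. Commercial dry yeast was a dry active yeast product whose strain, culture and drying are not given in the sources used here. Dried BY4743 was a diploid laboratory strain of the S288C background, grown in rich glucose medium at 30 °C to an A600 of 0.8, resuspended in diluted medium, dried over 42 h and held at 20% relative humidity for 72 h. Control BY4743 was the same kind of suspension sampled before drying. Both BY4743 groups share the strain's known genotype, which lacks URA3 and LEU2, has HIS3 partly deleted and has 1 disrupted copy each of LYS2 and MET15. The control was sampled only before drying began, so drying and elapsed time cannot be told apart.

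Mannoproteins form the outer layer of the yeast cell wall. Most are made with a lipid anchor (glycosylphosphatidylinositol, GPI), are decorated with mannose on their way through the endoplasmic reticulum and Golgi, and are then cut from the anchor and bound to wall glucan. The Pir proteins (proteins with internal repeats) have no such anchor and are bound to glucan directly. Yeast exchanges these proteins with growth phase, oxygen, temperature and the cell cycle, so that different members coat the wall under different conditions.

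Signals below are quantile-normalized intensities on a linear scale, and each array measured RNA of a whole sample, so that fewer cells with a transcript and less transcript per cell cannot be told apart. Background, the 95th percentile of 28 control probe sets with absent targets, lay between 32.2 and 59.5. Array profiles correlated at Pearson's r of 0.971 to 0.981 across probe sets within a group, and probe sets are not independent replicates. URA3 lay at background on all BY4743 arrays and read 365 ± 36.3 in commercial dry yeast (SD, n = 3), but LEU2 read 84.5 ± 11.4 in control BY4743, above background and against the genotype. Separate cultures for the 3 arrays of a group are not stated, so the p-values rest on a spread between arrays that may be technical. The number of arrays limits the precision of every value. The 3′ minus 5′ log2 difference of the actin (ACT1) control probe sets, a measure of RNA integrity, was 0.418 ± 0.0980 in commercial dry yeast, 1.40 ± 0.173 in dried BY4743 and -0.395 ± 0.274 in control BY4743 (SD, n = 3 each). For the SPT15 control it was 1.99 ± 0.108, 1.63 ± 0.107 and 1.31 ± 0.0912 in the same order of groups, and for SRB4 2.62 ± 0.400, 1.48 ± 0.0887 and 1.20 ± 0.271. ACT1 was thus highest in dried BY4743 and the other controls in commercial dry yeast, with control BY4743 lowest for each. These values moved with the groups beside every result below, and their part in them was not tested.

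Control replicate 1 stood apart for several members. It was the lowest control array for 7 of 10 members (CCW12, CWP1, CWP2, TIP1, SED1, PIR1 and HSP150), against 36.5% of the 1546 probe sets with a mean control signal of 1000 or more. The scatter of CCW12, CWP2 and SED1 in the control was large: the SD of the log2 signal was 4.40, 1.35 and 1.16, where the median over probe sets above background was 0.129. Only 0.247% of those probe sets scattered as much as SED1. Results that rest on this array are given with and without it.

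**Figure D1:**
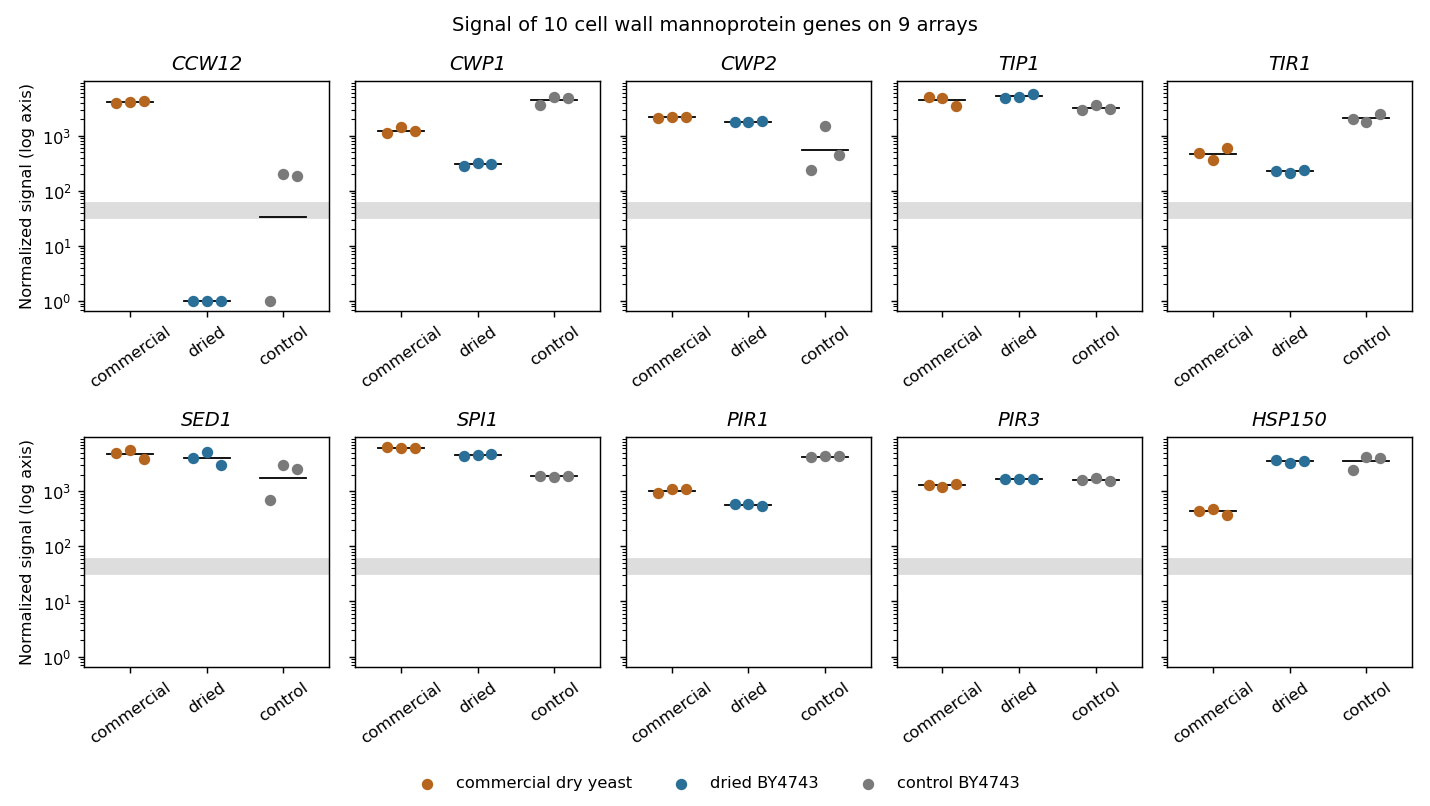
Normalized signal (log axis) of each of the 10 genes on the 9 arrays, with commercial dry yeast, dried BY4743 and control BY4743 from left to right. Points are arrays, black lines geometric means, and the grey band is the range of background, 32.2 to 59.5; CWP1, TIR1 and PIR1 were highest in the control, HSP150 was lowest in commercial dry yeast, and CCW12 lay at the floor of 1 in dried cells.

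Among the small GPI-anchored wall proteins, CWP1 and CWP2 had opposite patterns. CWP1, a wall protein of the birth scar region, read 1100.4, 1433 and 1219 in commercial dry yeast, 284, 319 and 306 in dried BY4743, and 3610.2, 5046 and 4846 in control BY4743. The 3 groups did not overlap, with the dried arrays lowest and the control arrays highest. CWP2, a major structural mannoprotein that supports wall stability at low pH, read 2076, 2194 and 2228 in commercial dry yeast, 1763, 1769 and 1866 in dried BY4743, and 241, 1519 and 455 in control BY4743. All dried and commercial arrays lay above all control arrays, but the control arrays themselves spread over a wide range.

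CCW12, a main mannoprotein of growing buds, read 3917, 4057 and 4328 in commercial dry yeast. It lay at the floor of 1 on all 3 dried arrays and read 1, 205 and 187 in control BY4743. The control arrays therefore disagreed on whether the transcript was above background, and 2 of 3 placed it there. This transcript is known as an abundant one in growing yeast, so a control signal near background goes against background knowledge. The deposited values were 0, 0.3 and 0 on the dried arrays and 0, 184.6 and 165.7 on the control arrays. Whether the probe set read the transcript properly on the BY4743 arrays cannot be settled from these values, and no change of scaling tests it. Of 222 probe sets with a mean signal of 4000 or more in commercial dry yeast, 2 lay at background on all 3 dried arrays, and CCW12 was the one of them that names a gene.

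TIP1 and TIR1 belong to a family of serine- and alanine-rich wall proteins induced by cold shock, and TIR1 is also made without oxygen. TIP1 read 5120.5, 4910.1 and 3481 in commercial dry yeast, 4915, 4996 and 5626 in dried BY4743, and 2905, 3665 and 3068 in control BY4743. The dried arrays lay above the control arrays, and the commercial arrays overlapped both groups. TIR1 read 493, 365 and 595 in commercial dry yeast, 225, 214 and 237 in dried BY4743, and 2002, 1813 and 2513 in control BY4743. The 3 groups were fully separated, in the same order as for CWP1.

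SED1 and SPI1 are GPI-anchored proteins known from stationary phase, SPI1 also from stress by weak acids. SPI1 read 6367, 6166 and 6140.1 in commercial dry yeast, 4303, 4608 and 4839 in dried BY4743, and 1908, 1804 and 1878 in control BY4743. Its groups were separated and its arrays agreed closely. SED1 read 4983, 5652 and 3859 in commercial dry yeast, 3971, 5278 and 3068 in dried BY4743, and 687, 2966 and 2556 in control BY4743. The commercial and dried arrays overlapped, and both lay above the control arrays.

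Of the 3 Pir genes, PIR3 and HSP150 were both lowest in commercial dry yeast, though by very different amounts, whereas PIR1 was highest in the control. PIR1 read 928, 1082 and 1095 in commercial dry yeast, 583, 585 and 542 in dried BY4743, and 4167, 4418 and 4291 in control BY4743. PIR3 read 1303, 1188 and 1352 in commercial dry yeast, 1649, 1695 and 1642 in dried BY4743, and 1592, 1714 and 1563 in control BY4743. PIR1 thus separated all groups, whereas the dried and control arrays of PIR3 overlapped. HSP150, also called PIR2 and induced by heat shock, read 448, 482 and 375 in commercial dry yeast, 3651, 3257 and 3562 in dried BY4743, and 2487, 4228 and 4104 in control BY4743. The commercial arrays lay far below both BY4743 groups, which overlapped each other.

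The first comparison asked how dried BY4743 differed from the control. The transcripts of CWP1, TIR1 and PIR1 fell far, and those of SPI1 and, by less, TIP1 rose. CWP1 averaged 303 ± 17.7 in dried and 4501 ± 778 in control BY4743 (SD, n = 3 each), a 14.7-fold lower signal (log2 change -3.88, SE 0.15, adjusted p = 2.31e-07). TIR1 was 9.27-fold lower (log2 change -3.21, SE 0.19, adjusted p = 1.99e-06) and PIR1 7.53-fold lower (-2.91, SE 0.09, adjusted p = 6.76e-08). SPI1 was 2.46-fold higher (log2 change 1.30, SE 0.07, adjusted p = 1.51e-06) and TIP1 1.62-fold higher (0.69, SE 0.17, adjusted p = 0.00605). All p-values come from limma over 9275 probe sets with Benjamini-Hochberg adjustment, and a probe set was called at an adjusted p under 0.05.

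In all, 7 of 10 members were called, 3 higher and 4 lower, where 69.2% of all probe sets tested were called, 36.2% higher and 33% lower. For 7 of 10 members no dried array overlapped the control arrays, as for 74.6% of all probe sets. The share of members called was thus near that of the whole array. It was below the 79.8% called when the dimmest 25% of probe sets were left out. The median absolute log2 change was 1.504 over the members and 0.91 over all probe sets, and the median signed change was 0.01 and 0.04. Scaled to spike-in controls, 1 member was called higher and 4 lower. The fall of CWP1, TIR1 and PIR1 was called under each of the 15 alternative settings, whereas SPI1 (0.70, adjusted p = 0.0929) and TIP1 (0.10, adjusted p = 0.839) were not called with spike-in scaling. Over the alternatives the adjusted p of SPI1 was otherwise under the threshold, and that of TIP1 also missed it with the values as deposited (0.0559) and with arrays centred on their medians (0.227).

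The calls of CWP2 and CCW12 rested on the scattered control arrays. CWP2 was 3.27-fold higher in dried cells (log2 change 1.71, SE 0.57, adjusted p = 0.0273). Without control replicate 1 its change was 1.12 (adjusted p = 0.0599), and without control replicate 3 it was 1.56 (adjusted p = 0.0763). Without any one dried array it was 1.69 to 1.73 (adjusted p = 0.0613 to 0.0656), and in a fit of these groups alone its adjusted p was 0.0673. The other 9 alternatives, leaving out control replicate 2 (its highest control array) among them, kept the call. Over all 15 its change ran from 1.12 to 2.42. CCW12 was called lower (log2 change -5.08, SE 1.84, adjusted p = 0.0383), but its dried arrays were at the floor and the mean of its log2 control signals, with 1 array at the floor, did not exceed background, so no fold is given. With signals under background raised to background its change was -1.26, still called (adjusted p = 0.0306). Its change was -7.61 without control replicate 1, which kept the call, and -3.78 and -3.85 without control replicates 2 and 3, which lost it (adjusted p = 0.122 and 0.121). Without any one dried array the adjusted p of CCW12 was 0.0818 to 0.0820, and in a fit of these groups alone 0.0863.

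SED1, PIR3 and HSP150 were not called. SED1 averaged 4106 ± 1111 in dried and 2069.8 ± 1215 in control BY4743 (SD, n = 3 each), with a log2 change of 1.21 (95% interval -0.02 to 2.44, adjusted p = 0.0738). It was 0.56 without control replicate 1, and 1.59 and called without control replicate 2 (adjusted p = 0.0352). SED1 was also called with an offset of 50 (adjusted p = 0.0450), with a floor at background (0.0415) and without the dimmest 25% of probe sets (0.0433), so that 4 of its 15 alternatives called it higher. PIR3 had a log2 change of 0.04 (95% interval -0.15 to 0.22), a narrow interval around 0, although the sign of this small value was negative under the 3 other scalings. HSP150 had a log2 change of -0.01 (95% interval -0.49 to 0.47). Under quantile normalization the interval of PIR3 leaves room only for a small change, and that of HSP150 for a moderate one in either direction. Other settings went outside these intervals. Over the 15 alternatives PIR3 ran from -0.42 to 0.08 and HSP150 from -0.55 to 0.13, none of them called.

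**Figure D2:**
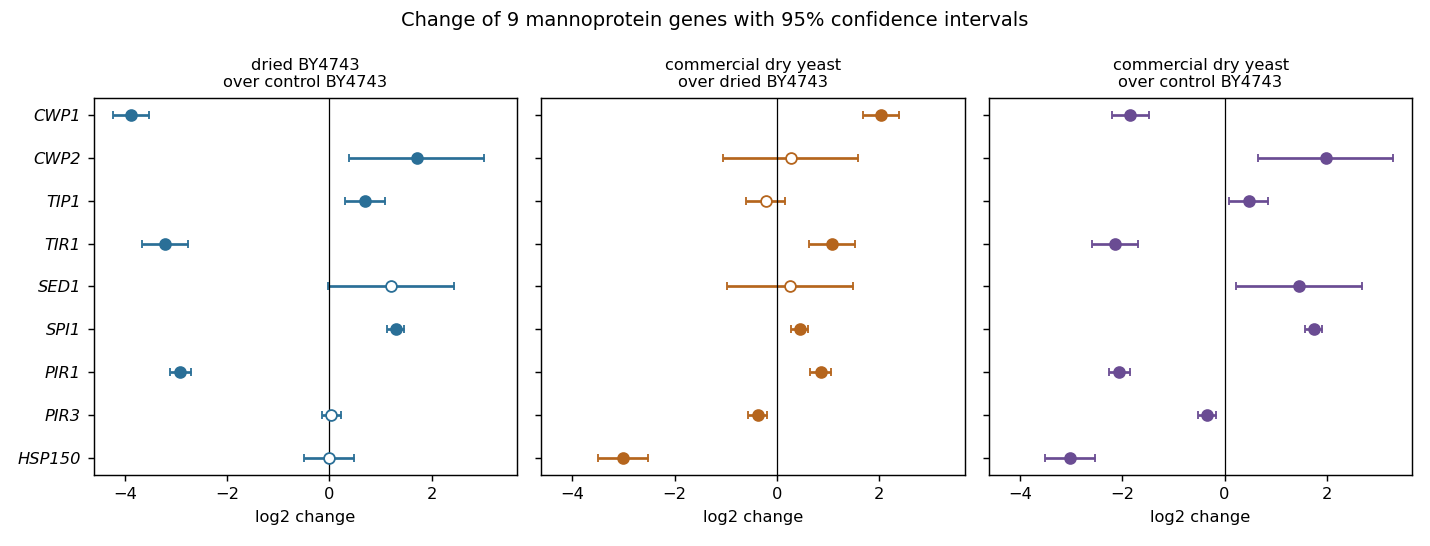
Log2 change of 9 genes (CCW12 left out, since it lay at the floor in dried cells) in each comparison, with 95% confidence intervals from limma; filled points passed the adjusted threshold and open points did not. CWP1, TIR1 and PIR1 were lower in dried and in commercial yeast than in the control, at log2 changes between -3.88 and -1.84.

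The commercial product was next set against dried BY4743. HSP150 transcript was far lower in the commercial product, PIR3 slightly lower, and CCW12, CWP1, TIR1, PIR1 and SPI1 were higher. HSP150 averaged 435 ± 54.5 in commercial and 3490.0 ± 206 in dried BY4743 (SD, n = 3 each), an 8.06-fold lower signal (log2 change -3.01, SE 0.21, adjusted p = 8.3e-06). PIR3 was 1.30-fold lower (log2 change -0.38, SE 0.08, adjusted p = 0.0034). CCW12 was at least 80.7-fold higher against the background of the dried arrays, with an adjusted p of 0.000631 for the fitted change. This bound holds only if its probe set read the transcript properly on the dried arrays, which was not tested. Strain, culture and drying can all differ between these groups and cannot be told apart.

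CWP1 was 4.11-fold higher (log2 change 2.04, SE 0.15, adjusted p = 1.3e-05), TIR1 2.11-fold (1.08, SE 0.19, adjusted p = 0.00144), PIR1 1.81-fold (0.86, SE 0.09, adjusted p = 6.79e-05) and SPI1 1.36-fold (0.44, SE 0.07, adjusted p = 0.000981). With spike-in scaling these rises of TIR1, PIR1 and SPI1 became changes of -0.29, -0.57 and -0.43 that were not called, and that of CWP1 shrank to 0.61 (adjusted p = 0.144). CWP2 (0.27, 95% interval -1.05 to 1.59), SED1 (0.25, interval -0.98 to 1.48) and TIP1 (-0.22, interval -0.60 to 0.16) were not called. With spike-in scaling TIP1 was called lower at -1.09 (adjusted p = 0.0111), and it changed by 0.14 as deposited and by 0.17 centred on array medians, neither of them called (adjusted p = 0.558 and 0.531). The spread behind these intervals was fitted to all 9 arrays, the scattered control arrays included. Fitted to the arrays of this comparison alone, CWP2 had an SE of 0.08 in place of 0.57 and was called higher at the same change (adjusted p = 0.0230), where its adjusted p over all alternatives ran from 0.0230 to 0.780. SED1 had an SE of 0.24 in place of 0.53 in that fit and was not called (adjusted p = 0.396).

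Thus 7 of 10 members were called, 5 higher and 2 lower, where 66.5% of all probe sets were called, 33.1% higher and 33.5% lower. With the dimmest 25% of probe sets left out, 73.1% were called. Arrays did not overlap for 8 of 10 members, against 72.8% of all probe sets. The median absolute log2 change was 0.65 over the members and 0.79 over all probe sets, the other way round from dried over control BY4743. With spike-in scaling 1 member was called higher and 3 lower. That scaling put the array-wide median change (log2) at -1.10 here, at -0.29 in dried over control BY4743 and at -1.43 in commercial dry yeast over control BY4743, where quantile normalization gave 0.00, 0.04 and -0.01. It rests on 9 probe sets of the array maker's hybridization controls (BioB, BioC, BioDn and CreX), so these shifts do not measure RNA per cell. The directions that remained under all 4 scalings were those of CCW12 and CWP1 (higher) and of HSP150 and PIR3 (lower).

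The last comparison, of commercial dry yeast with control BY4743, shares its arrays with both comparisons above. All 10 members were called, 5 higher and 5 lower, where 72.5% of all probe sets were called, 35.5% higher and 37% lower. With the dimmest 25% of probe sets left out, 80.3% were called. Arrays did not overlap for 9 of 10 members, with TIP1 the exception, against 75.5% of all probe sets. The median absolute log2 change was 1.91 over the members and 0.98 over all probe sets. HSP150 was 8.11-fold lower (log2 change -3.02, SE 0.21, adjusted p = 4.87e-06), TIR1 4.40-fold (-2.14, SE 0.19), PIR1 4.16-fold (-2.06, SE 0.09), CWP1 3.58-fold (-1.84, SE 0.15) and PIR3 1.27-fold (-0.34, SE 0.08). These 5 calls were kept under each of the 15 alternatives. With spike-in scaling 1 member was called higher and 6 lower, and with arrays centred on their medians 3 were called higher and 5 lower.

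Of the higher members, SPI1 averaged 6224 ± 124 in commercial dry yeast and 1863 ± 53.6 in control BY4743 (SD, n = 3 each), a log2 change of 1.74 (SE 0.07, adjusted p = 3.84e-07), which was 0.27 and not called with spike-in scaling (adjusted p = 0.482, the highest of its alternatives). CCW12 had a fitted log2 change of 6.92 (SE 1.84, adjusted p = 0.00963), which counts the floor of control replicate 1, and of 4.41 without that array. CWP2 had a log2 change of 1.98 (SE 0.57, adjusted p = 0.0139), 1.39 without control replicate 1, and 0.31 and not called with spike-in scaling (adjusted p = 0.567). Over its 15 alternatives the change of CWP2 ran up to 2.69, and 14 kept the call. SED1 had a log2 change of 1.46 (SE 0.53, adjusted p = 0.0366), and 0.82, still called, without control replicate 1. Its call was lost without any one commercial array (adjusted p = 0.0550 to 0.10, with changes of 1.31 to 1.59), with arrays centred on their medians (0.0515) and in a fit of these groups alone (0.0685). TIP1 had a log2 change of 0.47 (SE 0.17, adjusted p = 0.0317), and its call was lost without control replicate 1 or 3 or commercial replicate 1 or 2 (adjusted p = 0.0813 to 0.103), with a replicate block (0.0515), with arrays centred on their medians (0.0789) and in a fit of these groups alone (0.0639). With spike-in scaling the change of TIP1 was -0.99 and called lower, and that of SED1 was -0.027.

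**Figure D3:**
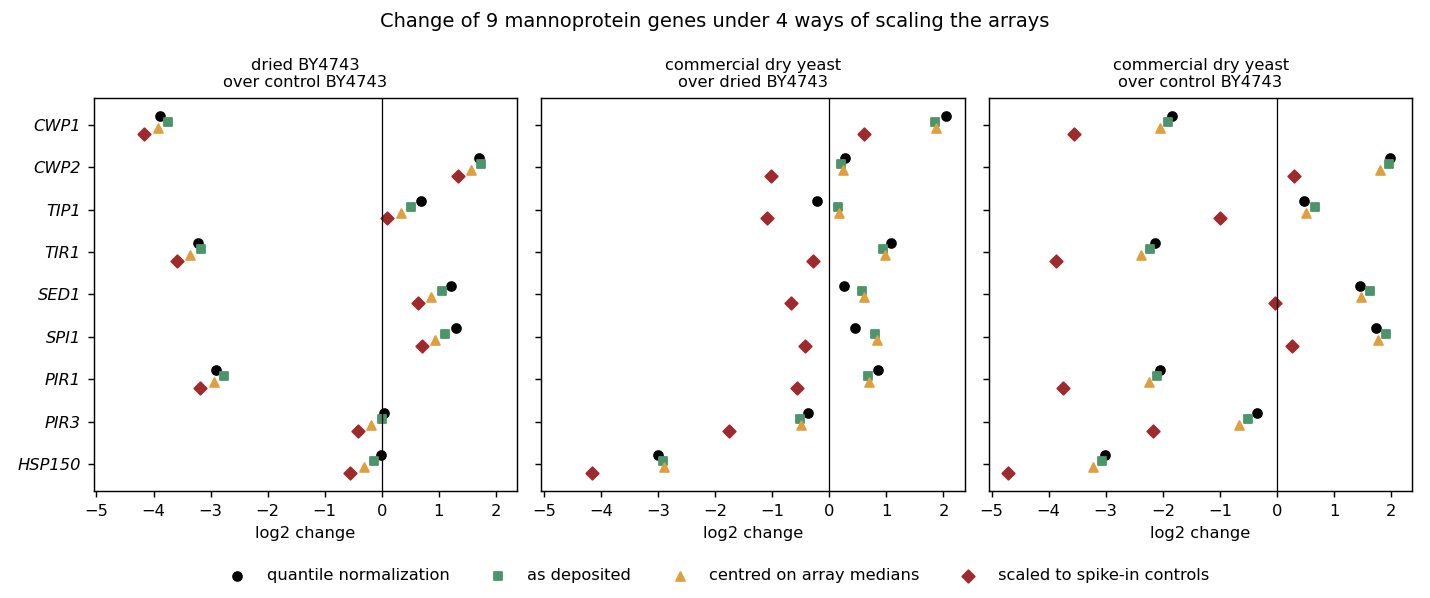
Log2 change of 9 genes (CCW12 left out) under quantile normalization, as deposited, centred on array medians, and scaled to spike-in controls. Spike-in scaling moved every value to the left, most in the comparisons with commercial dry yeast, where TIR1 over dried BY4743 lay below 0 (-0.29) and HSP150 remained lower than in either BY4743 group.

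Differences between related members do not depend on a common shift of an array, and 5 pairs were set side by side in 3 comparisons, 15 tests in all. PIR1 and PIR3 lie next to each other on chromosome XI in the RefSeq annotation of assembly R64, as do CWP2 and CWP1. The PIR1 minus PIR3 difference in log2 signal was -1.54 ± 0.05 in dried and 1.40 ± 0.05 in control BY4743 (SD, n = 3 each), a shift of -2.95 (exact two-sided permutation p = 0.1, adjusted p = 0.125). The CWP1 minus CWP2 difference was -2.57 ± 0.09 in dried and 3.02 ± 1.14 in control BY4743, a shift of -5.59 (exact p = 0.1, adjusted p = 0.125). An exact p of 0.1 is the smallest that 3 arrays against 3 can give, so none of these tests could pass the threshold.

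TIP1 minus TIR1 was 4.52 ± 0.06 in dried and 0.61 ± 0.37 in control BY4743 (SD, n = 3 each), a shift of 3.91 (exact p = 0.1, adjusted p = 0.125). PIR1 minus HSP150 was 1.25 ± 0.26 in commercial dry yeast and -2.61 ± 0.12 in dried BY4743, a shift of 3.87 (exact p = 0.1, adjusted p = 0.125). These 4 pairs had separated arrays in all 3 comparisons. SED1 minus SPI1, by contrast, shifted by -0.09 in dried against control BY4743 and by -0.19 in commercial dry yeast against dried BY4743, with overlapping arrays (exact p = 0.9 and 0.4, adjusted p = 0.9 and 0.462). Its control mean was -0.10 with an SD of 1.19. On control replicate 1 SED1 lay below SPI1 (687 and 1908), and on the other control arrays above it (2966 and 1804, 2556 and 1878). Without control replicate 1 the control and dried arrays of this pair did not overlap. The shift of -0.09 thus rests on that array, and no test was run without it.

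**Figure D4:**
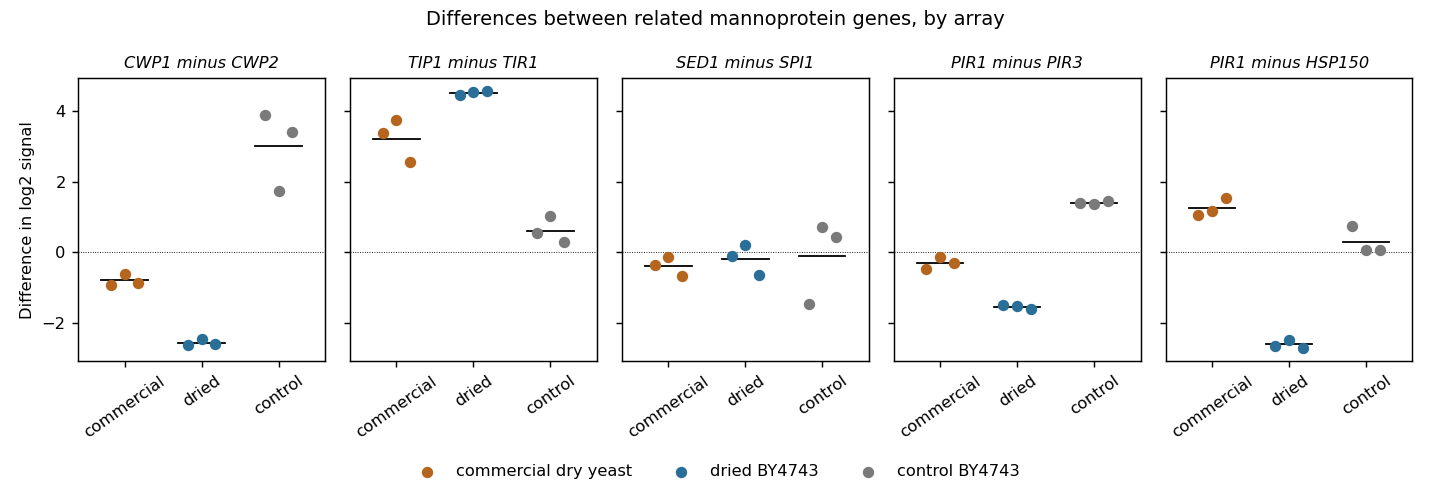
Difference in log2 signal between 2 related genes on each array, with commercial dry yeast, dried BY4743 and control BY4743 from left to right; points are arrays and lines means. PIR1 minus PIR3 and CWP1 minus CWP2 were lowest on the dried arrays and highest on the control arrays, with the commercial arrays between. SED1 minus SPI1 overlapped between groups, for the control only through its replicate 1.

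Across the 9 arrays, which share their groups, TIR1 and PIR1 had the most alike profiles of any members (Pearson's r = 0.98), followed by CWP1 with PIR1 and with TIR1 (0.96 each) and PIR3 with HSP150 (0.93). TIP1 ran opposite to TIR1 (-0.89). Outside the members, the profile most like that of PIR1 was that of SOL3 (r = 0.999), a gene of the pentose phosphate pathway family, and that most like CWP1 was SCS3 (0.998), followed by MVD1 (0.997), of sterol synthesis. SPI1 was most like TRR2 (0.998), a mitochondrial thioredoxin reductase, TIR1 most like HEM12 (0.996), of heme synthesis, and HSP150 most like CDC7 (0.994), a kinase of DNA replication. These values describe 3 group levels more than 9 separate points.

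Other wall genes were read from lists around the members, with each gene represented by its brightest probe set. Over all 5656 genes, 40.9% were called higher and 38% lower in dried against control BY4743. Of 21 other wall mannoproteins 6 were higher and 14 lower (median log2 change -0.82, and 0.06 over all genes). CIS3, the fourth Pir protein, averaged 311 ± 48.6 in dried and 4368 ± 844 in control BY4743 (log2 change -3.80, SE 0.18), and ECM33, a GPI protein needed for wall integrity, 280.1 ± 20.1 and 4238 ± 1151 (-3.88, SE 0.20). TOS6 and NCW2, wall proteins, were lower by log2 changes of -4.01 and -3.68. Of 34 mannosylation genes 5 were higher and 26 lower (median -1.01), with the protein O-mannosyltransferases PMT4 and PMT2 at -3.86 and -3.33 and DPM1, which makes dolichol-phosphate mannose, at -2.97.

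The GPI anchor list gave 5 higher and 17 lower of 26 in the same comparison (median -0.83), with the anchor remodelling gene PER1 at -3.77 and MCD4, an anchor synthesis enzyme, at -2.62. Of 8 proteases that process wall proteins 2 were higher and 6 lower (median -1.03), including the yapsins MKC7 and YPS3 at -3.38 and -2.43. The cell wall integrity list differed in its split, with 14 of 25 higher and 8 lower (median 0.63). It mixes activators and inhibitors, so this split gives no direction for the pathway. Of its kinases, MKK1, MKK2 and PKC1 were higher at 2.09, 1.47 and 0.63, SLT2 lower at -0.88, and BCK1 was not called (-0.23). Of its inhibitors, SAC7, PTP2, PTP3, BAG7 and SDP1 were higher at 1.54, 1.44, 1.18, 1.02 and 0.38. LRG1 was lower at -0.93, and MSG5 was not called (0.08). The surface sensors of the pathway went both ways. WSC3, WSC2 and WSC4 had changes of -2.58, -2.46 and -1.88. Of the other sensors, named after their values were seen, SLG1 (also called WSC1) was called higher at 1.29 and MID2 lower at -0.58, and MTL1 was not called at 0.24. The rest of the list also went both ways. SWI4, ROM1, TUS1, ROM2 and RLM1 were called higher at 1.70, 1.21, 0.79, 0.75 and 0.74. SWI6 and RHO1 were called lower at -1.25 and -0.45. Of 14 transcription regulators 6 were higher and 7 lower, among them ROX1, a repressor of genes made without oxygen, at 1.996 and the stress regulator MSN4 at -2.69. MGA1, whose link to mannoprotein genes is not sure, averaged 36.0 ± 3.04 in dried BY4743, at background on all its arrays. In control BY4743 it averaged 627 ± 39.6 (SD, n = 3 each). The corepressor TUP1 averaged 371 ± 53.3 in dried and 1417 ± 216 in control BY4743 (SD, n = 3 each). UPC2, an activator of genes made without oxygen, averaged 104 ± 14.9 in dried and 62.9 ± 4.29 in control BY4743. Whether any of these regulators bears on TIR1 was not tested. SWI5, a regulator of genes at the end of mitosis, lay at background in dried cells and was at least 1.75-fold lower. With spike-in scaling the medians stayed below 0 for the mannoprotein (-1.16), mannosylation (-1.36), GPI (-1.20) and protease (-1.38) lists and above 0 for the integrity pathway (0.21), where all genes had a median of -0.27. Called higher and lower were then 1 and 13, 1 and 22, 0 and 16, 0 and 4, and 8 and 8 in these lists in the same order, and 1 and 5 of the regulators.

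In commercial dry yeast against dried BY4743, 32.1% of all genes were called higher and 38.1% lower. The other wall mannoproteins gave 6 higher and 7 lower (median 0.06, and -1.02 with spike-in scaling, where all genes had -1.30). FIT1, an iron-related mannoprotein, averaged 783 ± 32.1 in commercial and 133 ± 11.2 in dried BY4743 (log2 change 2.56, SE 0.11), whereas its relative FIT2 averaged 62.5 ± 6.46 and 656 ± 55.6 (-3.39, SE 0.26). DAN1, a mannoprotein made without oxygen, was at background in dried BY4743 and at least 2.26-fold higher in commercial dry yeast. Mannosylation genes were higher in 10 and lower in 18 of 34 cases, with OCH1, which starts the outer mannose chain, at -2.17. MNN4, linked to mannose phosphorylation, changed by 3.50, but its probe set shares probes with other sequences and its identity is uncertain. GPI genes gave 8 higher and 10 lower of 26, with BST1 and DFG5 lower at -2.56 and -1.74 and CWH43 and PER1 higher at 2.34 and 2.07. Proteases gave 3 higher and 3 lower of 8, the integrity pathway 5 higher and 12 lower of 25 and the regulators 4 higher and 5 lower of 14. The largest change among these 14 was that of MGA1, at least 12.2-fold higher against the background of the dried arrays. With spike-in scaling calls were almost all lower, at 2 higher and 15 lower for the mannoproteins, 1 and 27 for mannosylation, 2 and 20 for the GPI list, 0 and 5 for the proteases, 0 and 20 for the integrity pathway and 1 and 9 for the regulators.

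In commercial dry yeast against control BY4743, 37.2% of all genes were called higher and 41.9% lower. The other wall mannoproteins gave 4 higher and 13 lower of 21 (median -0.66), led by CIS3 at 100.4 ± 11.02 in commercial dry yeast and 4368 ± 844 in control BY4743 (log2 change -5.43, SE 0.18). Mannosylation genes were lower in 25 and higher in 5 of 34 cases (median -1.25), including PMT4 at -4.28, VRG4, the Golgi transporter of GDP-mannose, at -3.83 and PSA1, which makes GDP-mannose, at -3.77. GPI genes were lower in 18 and higher in 1 of 26 (median -0.95), and proteases lower in 5 and higher in 0 of 8 (median -1.21). The integrity pathway gave 11 higher and 10 lower of 25 (median 0.01, and -0.06 with arrays centred on their medians), with the sensor WSC2 at -4.40. The regulators gave 6 higher and 5 lower of 14, with ROX1 at 1.42 (-0.13 and not called with spike-in scaling) and MSN4 at -2.77. With spike-in scaling all 6 medians were below 0, as was that of all genes at -1.59. Called higher and lower were then 1 and 17, 1 and 33, 0 and 26, 0 and 8, 0 and 21, and 0 and 12, from the mannoproteins to the regulators.

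**Figure D5:**
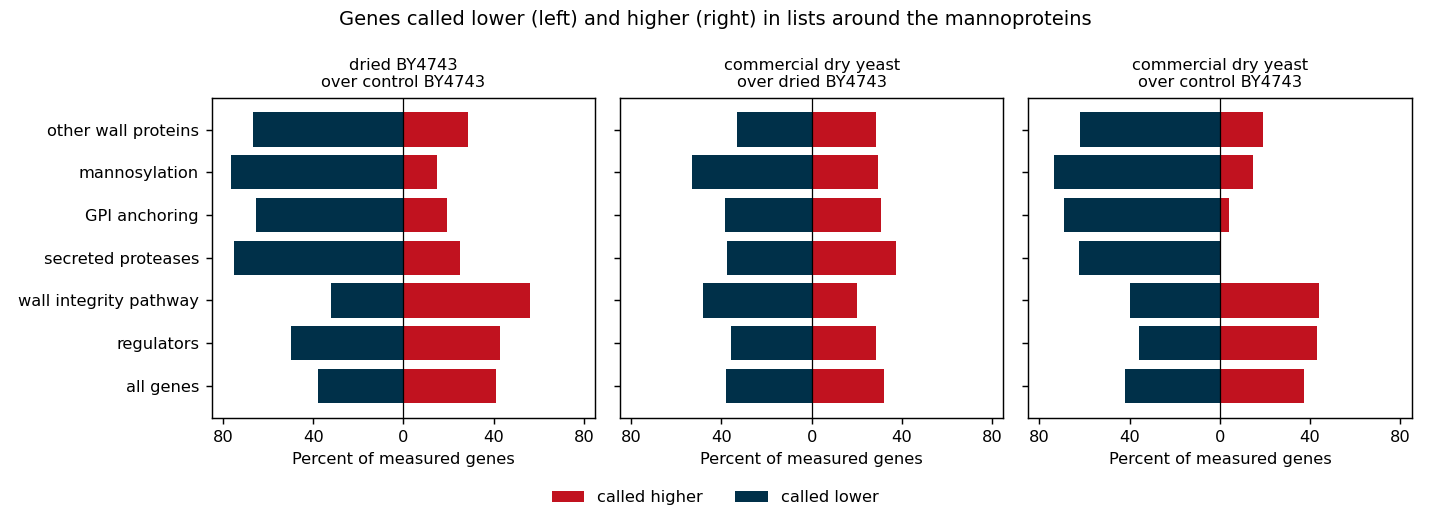
Percent of the measured genes of each list called lower (bars to the left) and higher (bars to the right) in each comparison, with all 5656 genes at the bottom. In dried over control BY4743 the mannosylation list was called lower for 76.5% of its genes and the wall integrity pathway for 32%, against 38% of all genes.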

How the data were processed

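RNA was measured on 9 one-colour Affymetrix Yeast S98 arrays, 3 per group, grouped and numbered by sample titles. Each deposited value is the linear intensity of a probe set on an array. Per the labels' protocols the authors read the images with the manufacturer's expression software and passed the signals through Wilcoxon's signed rank test and a linear mixed model. Trimmed means near 500.2 on every array show a global scaling; whether the mixed model acted on these values is not known, and no build or software version is given in the sources used here.

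Signals under 1 were raised to 1, log2 was taken and, since array log2 medians spanned 0.284, arrays were quantile normalized (limma 3.58.1, R 4.3.3). Of 9335 probe sets 60 controls were left out of the tests. A model with a mean for each group was fitted by lmFit and eBayes (6 residual and 1.64 prior degrees of freedom); tests were two-sided, with Benjamini-Hochberg adjustment over all probe sets of a comparison. Quantile normalization makes changes relative to all transcripts of an array. Where a group lay at background on all its arrays, a fold is a bound against background. The fit was tested on simulated data. Gene names came from the array's platform table, with symbols brought up to date through RefSeq R64. The members and the 6 lists were chosen with earlier results of these data known. Of each list the text names genes among the 4 largest called changes. Beyond these it names, after their values were seen, 3 sensors, other kinases, the inhibitors and the remaining members of the integrity pathway, and the regulators TUP1 and UPC2. MLP1 was left out of the integrity list because that symbol denotes another gene. No probe, promoter or protein sequences were used here. Differences between related genes were compared by exact permutation over arrays. Alternatives were the values as deposited, median centring, spike-in scaling, an offset of 50, a floor at background, leaving out the dimmest 25% of probe sets or those with shared probes, fitting only the groups compared, a replicate block, and leaving out each array.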

Additional observations from a re-analysis of the deposited data

How the results depend on the processing

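Each comparison was refitted under 9 other settings and without each array of its groups in turn, which gave 15 alternatives per comparison. Over the 10 members and 3 comparisons, 398 of these refits kept direction and side of the threshold, 31 lost a call, 6 gained one and 15 changed sign. The number of members called was within 1.5 times of that given above, except for commercial over dried BY4743 with spike-in scaling, where 4 were called in place of 7. In dried over control BY4743 the same scaling left 4 of 8 proteases and 6 regulators called in place of 13, and in commercial over control BY4743 it raised the called proteases to 8, in place of 5. With it the changes of CWP2, TIR1, SED1, SPI1 and PIR1 in commercial over dried BY4743 were -1.03, -0.29, -0.66, -0.43 and -0.57. In commercial over control BY4743 those of TIP1 and SED1 were -0.99 and -0.027. TIP1 over dried BY4743 changed by 0.14 with the values as deposited and by 0.17 with arrays centred on their medians. PIR3 in dried over control BY4743 changed by -0.000341, -0.18 and -0.42 as deposited, centred and with spike-in scaling. HSP150 there ran from -0.27 to 0.13 when 1 array was left out. The cause of these shifts was not tested, beyond the common shift of all probe sets with spike-in scaling. Leaving out 1 array gave 5 to 7 called members in dried over control BY4743, 7 in each case in commercial over dried BY4743, and 8 to 10 in commercial over control BY4743. The replicate block, whose numbers were not shown to pair arrays (same-numbered deviations correlated at -0.10 to 0.17), left 7, 7 and 9 members called. Cross-hybridisation among relatives could not be examined, and 3 arrays per group limit every value.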
